A study of Arabidopsis thaliana with 42 samples.

Results

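The genes described here are the DELLA and GID1 gibberellin signalling genes of Arabidopsis, with the F-box gene that acts on DELLA proteins. They were chosen by name, and comprise the 5 DELLA genes GAI (AT1G14920), RGA (AT2G01570), RGL1 (AT1G66350), RGL2 (AT3G03450) and RGL3 (AT5G17490), the 3 receptor genes GID1A (AT3G05120), GID1B (AT3G63010) and GID1C (AT5G27320), and SLY1 (AT4G24210). All 9 were among the 27050 genes of the series. The leaves came from *rpn12a-236*, an EMS mutant in the Col-0 ecotype with a premature stop codon in RPN12a, and from WT Col-0, all grown in short days. In both genotypes leaf blades were taken in the light at 0 d and as individually darkened leaves (IDLs, single leaves covered while the rest of the plant stays in the light) after 6 h, 1 d, 3 d and 6 d. WT leaves kept in the light were also taken at the 4 later times, whereas *rpn12a-236* was sampled in the light at 0 d alone. Each of the 14 conditions had 3 biological replicates (42 libraries), each a pool of leaves from independent plants. The hour of harvest was 2 pm for the 6 h leaves and 8 am for the others. The mutant is a single line from an EMS screen, backcrossed to WT. In the study, RPN12a transgenes restored its senescence in darkened leaves fully or in part, but no complemented line is among these libraries. For the transcripts described here, other mutations of the line therefore cannot be told apart from that in RPN12a.

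Gibberellins act by removing DELLA proteins, nuclear regulators that hold back growth. A GID1 receptor that has bound gibberellin also binds the N-terminal part of a DELLA protein, and the SCF ubiquitin ligase that contains SLY1 then marks the DELLA protein for the 26S proteasome, of which RPN12a is a subunit. In Arabidopsis leaves, gibberellin is known to promote senescence and DELLA proteins to delay it. Only transcripts were measured here, not the proteins that this pathway degrades.

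The deposited values are z-scores, scaled so that the 42 libraries of any gene average 0 with an SD of 1. A difference of 1 is therefore 1 SD of that gene over all libraries, and is no fold change. Levels cannot be compared between genes, and sequencing depth is unknown from these values. In bulk leaf tissue, fewer cells of a type and less RNA per cell cannot be told apart. Of the marker genes, RBCS1A and RCA of photosynthetic leaf tissue were at a shared lowest value in 0 of the 42 libraries. Root PYK10 was at such a value in 31. RBCS1A averaged -0.69 in *rpn12a-236* and -1.32 in WT at 3 d IDL, and -1.15 in *rpn12a-236* and -2.19 in WT at 6 d IDL. RCA averaged -0.66 in *rpn12a-236* and -0.76 in WT at 3 d IDL, and -1.08 in *rpn12a-236* and -0.98 in WT at 6 d IDL. The floral gene AG was at a shared lowest value in 0 of the 42 libraries, so that this marker of another organ was not absent. It averaged -0.65 to 1.49 in *rpn12a-236* conditions and -1.28 to 1.41 in WT conditions. ASN1, a gene induced by darkness, averaged 0.44 to 1.81 in *rpn12a-236* IDLs and -0.52 to 0.30 in WT IDLs, with 1.81 in *rpn12a-236* and -0.52 in WT at 6 d. SAG12, a protease gene of senescing leaves, averaged -0.12 in *rpn12a-236* and 1.87 in WT at 3 d IDL, and 0.74 in *rpn12a-236* and 2.56 in WT at 6 d IDL. The part of RBCS1A, RCA, AG, ASN1 and SAG12 in the differences below was not tested. Replicate 3 of WT 6 h light lay apart, with a spread around its group 2.61 times that of the median library, and results that rest on it are given with and without it. The next highest ratios were 1.76 for replicate 2 of *rpn12a-236* 6 d IDL, and 1.67 and 1.38 for replicates 2 and 1 of WT 6 h light.

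The DELLA genes are distinct in sequence, so that reads can be assigned to each. None of the 31-base words of the 5 DELLA genes, GID1B or SLY1 occurred in another gene's transcripts, whereas GID1A and GID1C shared 5 of them (0.265% and 0.276% of their words). No member overlapped another annotated gene. Over aligned coding bases GAI and RGA were 82.4% identical, RGL2 and RGL3 77%, and the other DELLA pairs 66.2% to 69.6%, while GID1A and GID1C were 83.8% identical and GID1B was 70.2% and 70.5% identical to them. The stretches below, from the RefSeq TAIR10.1 assembly, are shown because they encode the motif that gives the family its name or its counterpart, the part through which GID1 recognises a DELLA protein. The capitals mark the 15 bases of the motif, and each stretch is 30 bases read 5′ to 3′ on the coding strand.
GAI: GATGAGCTTCTAGCTgttcttggttacaag
RGA: GACGAGCTTCTCGCTgttttaggttacaaa
RGL1: GACGAGCTTTTGGTTgttttaggttacaaa
RGL2: GATGAGCTTCTTGCTgttcttggctacaag
RGL3: GACGAGTTTCTTGCTgttttgggttacaag
The stretches lie in coding exons at chr1:5149495-5149524 on the plus strand for GAI, chr2:257186-257215 on the minus strand for RGA, chr1:24748420-24748449 on the plus strand for RGL1, chr3:821121-821150 on the minus strand for RGL2 and chr5:5765759-5765788 on the minus strand for RGL3. In the capitals, RGA differed from GAI at 2 bases, RGL1 at 4, RGL2 at 1 and RGL3 at 3. RGL2 was thus the nearest to GAI in the capitals and RGL1 the furthest. The stretches bear on the proteins and not on the transcript levels, which are described next.

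**Figure D1:**
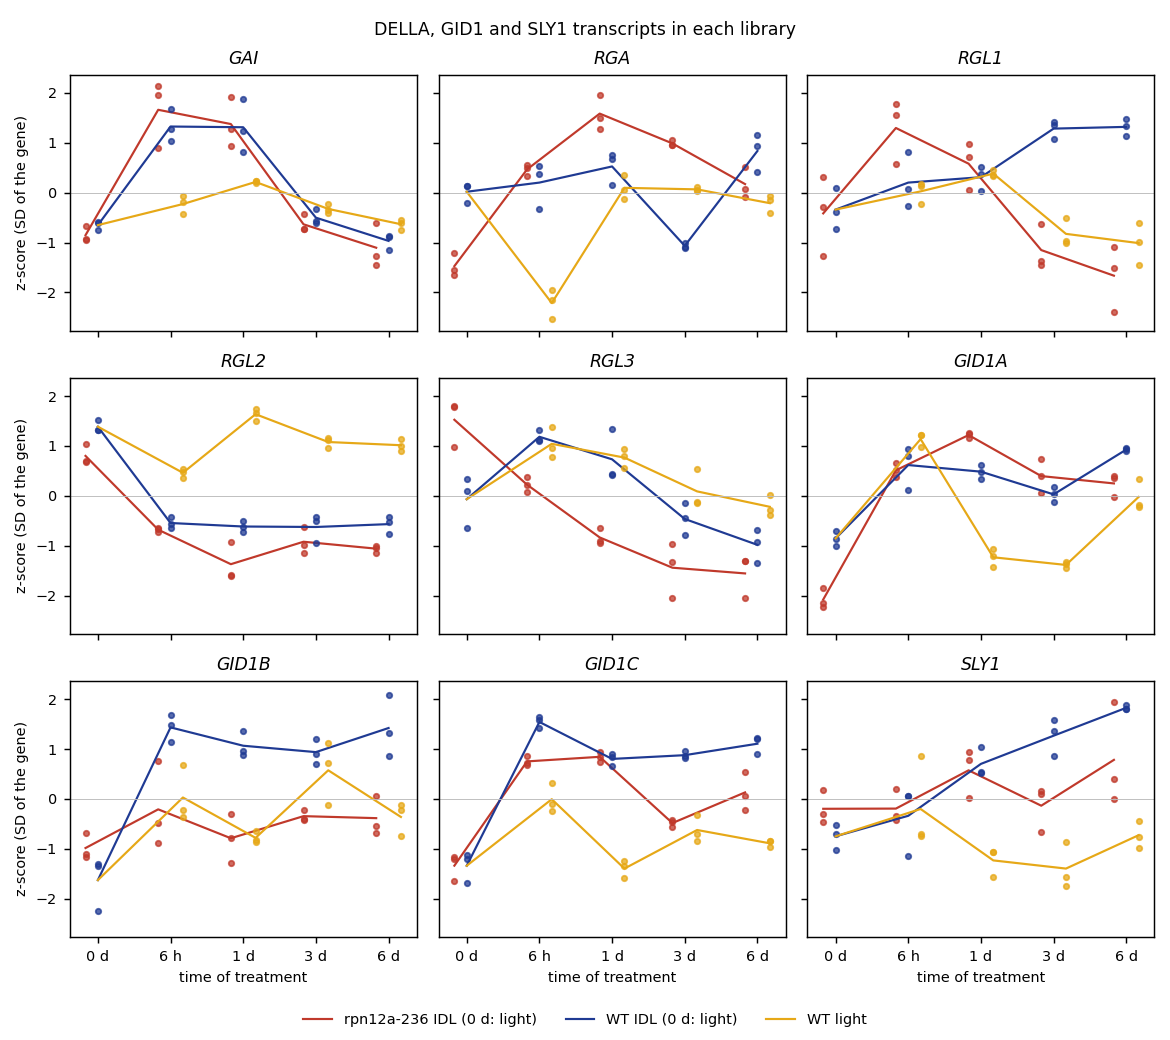
z-score of each gene (y axis, SD of the gene over the 42 libraries) against time of treatment (x axis, 0 d to 6 d) in *rpn12a-236* IDLs, WT IDLs and WT light leaves. Points are single libraries and lines join the means of 3, with 0 d leaves in the light. GID1B of *rpn12a-236* IDLs averaged -0.79 to -0.21, below the 0.94 to 1.44 of WT IDLs, while GAI ran close together in both genotypes.

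The first question was how the genotypes differed at each time. GID1B was lower in *rpn12a-236* than in WT at all 4 IDL times, GID1C at 6 h, 3 d and 6 d, and RGL1 at 3 d and 6 d. RGA was lower in *rpn12a-236* at 0 d and higher at 1 d and 3 d. RGL3 was higher in *rpn12a-236* at 0 d and lower at 1 d, whereas GAI was not called at any time. In limma, with calls made up to an adjusted p of 0.01, 3, 2, 5, 5 and 4 of the 9 members were called at 0 d, 6 h, 1 d, 3 d and 6 d, where 17.2%, 11.4%, 22.5%, 27.6% and 35.1% of all genes tested were called. Of the 45 values, 4 were called higher and 15 lower in *rpn12a-236*, beside 10.9% higher and 11.9% lower of all values over the 5 times. The median difference of the 9 members was -0.076, -0.105, 0.042, -0.98 and -0.68 at 0 d, 6 h, 1 d, 3 d and 6 d, where that over all genes tested was -0.030, -0.004, 0, 0 and 0.

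**Figure D2:**
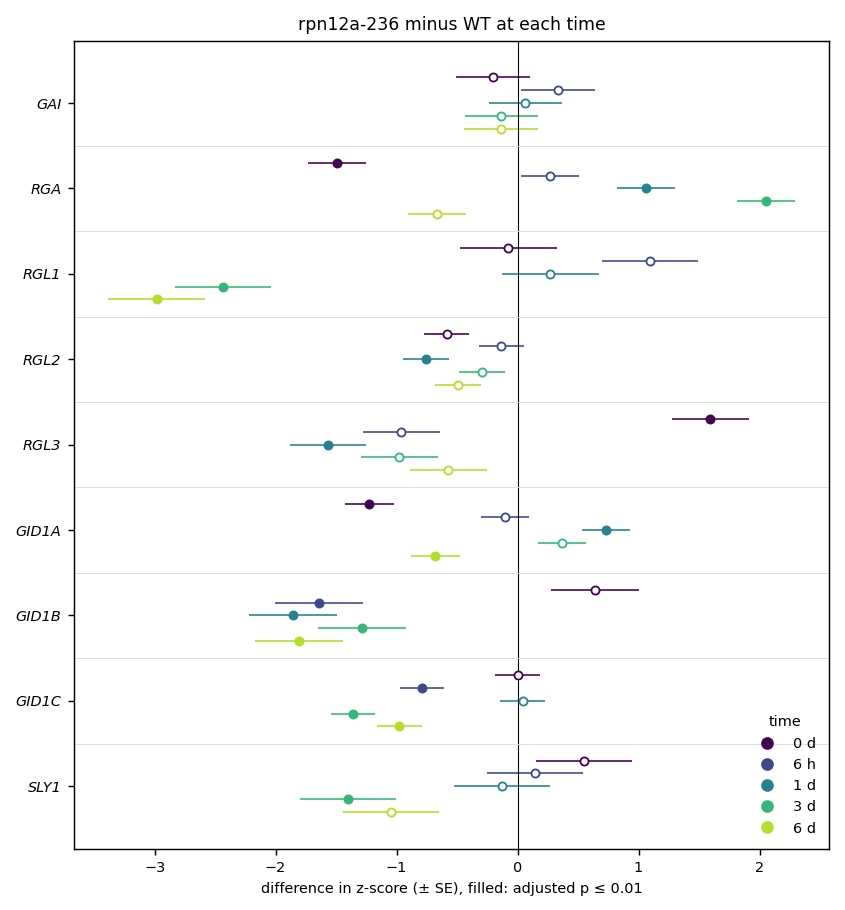
Difference in z-score (x axis, *rpn12a-236* minus WT, ± SE from limma, 3 libraries a group) of each gene (y axis) at 5 times, with filled points for an adjusted p of at most 0.01. RGL1 reached -2.98 at 6 d and RGA 2.05 at 3 d, while none of the 5 points of GAI is filled.

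Among the DELLA genes, RGA, with GAI the main DELLA repressor of vegetative growth, had differences of both signs. At 0 d its z-scores were -1.56, -1.20 and -1.65 in *rpn12a-236*, against 0.13, 0.13 and -0.20 in WT. At 1 d they were 1.51, 1.97 and 1.29 in *rpn12a-236*, against 0.67, 0.76 and 0.15 in WT, and at 3 d 0.95, 1.06 and 0.96 in *rpn12a-236*, against -1.01, -1.09 and -1.10 in WT. The libraries of the genotypes did not overlap at these 3 times, with *rpn12a-236* below WT at 0 d and above it at 1 d and 3 d. The differences were -1.49 ± 0.24 (SE, limma adjusted p = 6.06e-05), 1.06 ± 0.24 (limma adjusted p = 0.00146) and 2.05 ± 0.24 (limma adjusted p = 4.67e-07). At 6 h the difference was 0.26 (95% interval -0.23 to 0.76) and at 6 d -0.66 (limma adjusted p = 0.0267), and neither was called. The call at 1 d was lost without replicate 3 of WT (0.87, limma adjusted p = 0.015) or replicate 2 of *rpn12a-236* (0.87, limma adjusted p = 0.0137).

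RGL1, a DELLA gene with roles in germination and flowers, differed late. At 3 d its z-scores were -1.45, -0.63 and -1.37 in *rpn12a-236*, against 1.08, 1.41 and 1.36 in WT, and at 6 d -1.51, -1.10 and -2.39 in *rpn12a-236*, against 1.14, 1.34 and 1.48 in WT. The groups lay on opposite sides of the gene's mean at both times, and the differences were -2.44 ± 0.40 (limma adjusted p = 3.68e-05) and -2.98 ± 0.40 (limma adjusted p = 1.71e-06). At 6 h *rpn12a-236* had 1.77, 1.55 and 0.57 and WT 0.07, 0.81 and -0.27, groups that overlapped and were not called (1.09, limma adjusted p = 0.055).

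RGL3, a DELLA gene linked to jasmonate and stress responses, had 0.98, 1.80 and 1.79 in *rpn12a-236* at 0 d, against 0.10, -0.64 and 0.34 in WT. At 1 d it had -0.91, -0.65 and -0.94 in *rpn12a-236*, against 0.42, 1.34 and 0.44 in WT. The order of the genotypes was thus opposite at these times, with differences of 1.59 ± 0.32 (limma adjusted p = 0.000573) and -1.57 ± 0.32 (limma adjusted p = 0.000512). At 3 d and 6 d the means of *rpn12a-236* were -1.44 and -1.56 and those of WT -0.46 and -0.98, with differences that were not called (limma adjusted p = 0.017 and 0.15). RGL3 was the only member with libraries at its lowest shared value, 1 in *rpn12a-236* at 3 d and 1 at 6 d, where a lower level cannot be seen.

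RGL2, the main DELLA gene of seed germination, was called at 1 d alone, with -1.58, -0.93 and -1.60 in *rpn12a-236* against -0.72, -0.50 and -0.63 in WT. The difference was -0.76 ± 0.19 (limma adjusted p = 0.00323). This call was lost without replicate 2 or 3 of WT or replicate 1 or 3 of *rpn12a-236* (-0.64 to -0.76, limma adjusted p = 0.011 to 0.0241). GAI, which acts with RGA in growth, had no called difference, and its values were between -0.20 at 0 d and 0.34 at 6 h. The 95% intervals of its 5 differences lay within -0.83 and 0.97.

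The 3 receptor genes, whose products act partly in place of each other, did not move alike. GID1B at 6 h had -0.49, -0.89 and 0.75 in *rpn12a-236*, against 1.48, 1.15 and 1.67 in WT. At 1 d it had -0.78, -0.31 and -1.27 in *rpn12a-236*, against 0.88, 0.96 and 1.37 in WT, and at 6 d 0.06, -0.54 and -0.67 in *rpn12a-236*, against 0.87, 1.32 and 2.08 in WT. No library of *rpn12a-236* reached the lowest WT library at any IDL time. The differences were -1.64, -1.86, -1.28 and -1.81 at 6 h, 1 d, 3 d and 6 d (SE 0.36 each, limma adjusted p = 0.00218, 0.000381, 0.00699 and 0.000259). The call at 6 h was lost without replicate 3 of WT or replicate 1 or 2 of *rpn12a-236* (-1.30 to -1.52, limma adjusted p = 0.0135 to 0.0241), and that at 3 d without any of its 6 libraries (-1.15 to -1.40, limma adjusted p = 0.0104 to 0.0349). At 0 d GID1B was not called, with a difference of 0.64 (95% interval -0.11 to 1.40).

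GID1C at 3 d had -0.43, -0.46 and -0.57 in *rpn12a-236*, against 0.81, 0.86 and 0.96 in WT, and at 6 d -0.21, 0.54 and 0.07 in *rpn12a-236*, against 1.20, 1.23 and 0.90 in WT. The groups were apart at both times and also at 6 h, with differences of -0.79, -1.36 and -0.98 at 6 h, 3 d and 6 d (SE 0.18 each, limma adjusted p = 0.00342, 3.62e-06 and 0.000134). The call at 6 h was lost without replicate 1 or 2 of either genotype (-0.75 to -0.78, limma adjusted p = 0.0134 to 0.0179). At 0 d and 1 d the differences were 0.00 and 0.04, with 95% intervals of -0.38 to 0.38 and -0.34 to 0.42.

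GID1A was the receptor gene that differed before darkening, with -1.85, -2.15 and -2.23 in *rpn12a-236* at 0 d, against -0.998, -0.70 and -0.87 in WT. The difference was -1.22 ± 0.20 (limma adjusted p = 7.13e-05), and the mutant libraries held the lowest values of all 14 conditions. Smaller differences of opposite sign were called at 1 d (0.73 ± 0.20, limma adjusted p = 0.0063) and 6 d (-0.68 ± 0.20, limma adjusted p = 0.00735). The call at 1 d was lost without any of its libraries but replicate 2 of WT (0.66 to 0.77, limma adjusted p = 0.0144 to 0.0316), and that at 6 d without any but replicate 2 of *rpn12a-236* (-0.55 to -0.73, limma adjusted p = 0.0119 to 0.0481).

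SLY1, the F-box gene, was called at 3 d alone, with 0.10, 0.15 and -0.66 in *rpn12a-236* against 0.86, 1.36 and 1.59 in WT. The difference was -1.40 ± 0.40 (limma adjusted p = 0.00696). It was lost without replicate 2 or 3 of WT or replicate 1 or 3 of *rpn12a-236* (-1.14 to -1.52, limma adjusted p = 0.0113 to 0.0492). When each time was fitted on its own 6 libraries, 9 of the 19 genotype calls remained, which were RGA (0 d and 3 d), GID1A (0 d), GID1C (3 d), RGL1 (3 d and 6 d) and GID1B (1 d, 3 d and 6 d). The other 10 had a limma adjusted p of 0.011 to 0.0615 in those fits.

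The next question was how each gene in the IDLs of a genotype differed from 0 d. GID1A and GID1C rose and RGL2 fell at all 4 IDL times in both genotypes, and GAI rose at 6 h and 1 d in both. GID1B and SLY1 rose in WT and had no called change in *rpn12a-236*, while RGA rose at all 4 times in *rpn12a-236*. RGL3 fell at all 4 times in *rpn12a-236*. In *rpn12a-236* 7, 6, 5 and 6 members were called at 6 h, 1 d, 3 d and 6 d, beside 34.9%, 43.0%, 46.7% and 50.7% of all genes tested. In WT 6, 6, 7 and 7 members were called, beside 39.1%, 41.7%, 46.8% and 50.0% of all genes tested. Of 36 values in each genotype, 15 rises and 9 falls were called in *rpn12a-236* (20.7% and 23.1% of all values over the 4 times), and 21 rises and 5 falls in WT (21.1% and 23.3%). All 4 comparisons of a genotype share its 0 d libraries. Those at 6 h also differ from 0 d in hour of harvest, which cannot be told apart from darkness in them. In WT light at 6 h, GID1A differed from 0 d by 1.99 and RGL3 by 1.11, against 1.47 and 1.25 in WT IDLs. GAI, RGL2, GID1B and GID1C differed by 0.42, -0.92, 1.66 and 1.33 in WT light at 6 h. Their differences in WT IDLs were 1.98, -1.93, 3.06 and 2.88, each larger in size.

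**Figure D3:**
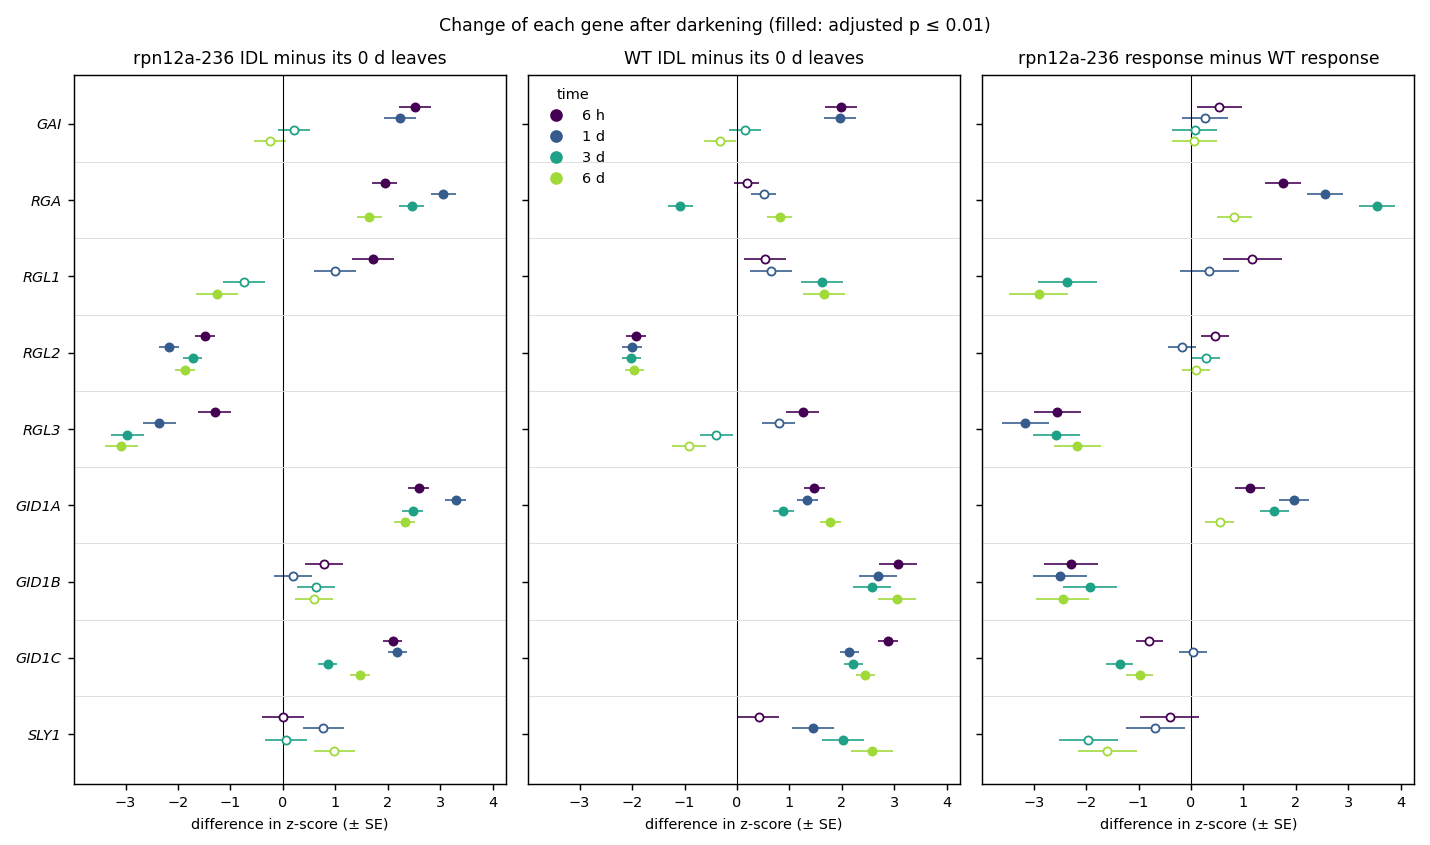
Difference in z-score (x axis, ± SE from limma) of each gene (y axis) at 6 h, 1 d, 3 d and 6 d, as IDL minus 0 d in *rpn12a-236* (left) and in WT (middle), and as the mutant response minus the WT response (right). Filled points have an adjusted p of at most 0.01. The WT response of GID1B lay between 2.57 and 3.06 and that of *rpn12a-236* between 0.20 and 0.78.

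The transient rise of GAI was a difference of 2.51 ± 0.30 at 6 h and 2.23 ± 0.30 at 1 d in *rpn12a-236*, and of 1.98 ± 0.30 and 1.96 ± 0.30 in WT (limma adjusted p = 3.69e-07, 1.34e-06, 7.85e-06 and 7.95e-06). At 3 d and 6 d its differences from 0 d lay between -0.25 and 0.22 in *rpn12a-236* and between -0.32 and 0.15 in WT, and none was called. RGL2 differed from 0 d by -1.48 to -2.17 in *rpn12a-236* and by -1.93 to -2.01 in WT. Its change was in place at 6 h, with -0.67, -0.73 and -0.64 in *rpn12a-236* IDLs against 0.68, 1.04 and 0.69 at 0 d, and with -0.65, -0.42 and -0.57 in WT IDLs against 1.53, 1.32 and 1.31 at 0 d.

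RGA rose by 1.94, 3.06, 2.46 and 1.65 at 6 h, 1 d, 3 d and 6 d in *rpn12a-236* (SE 0.24 each, limma adjusted p at most 2.53e-06). In WT it differed by 0.18 and 0.51 at 6 h and 1 d, which were not called, fell by 1.08 at 3 d (limma adjusted p = 0.000464) and rose by 0.82 at 6 d (limma adjusted p = 0.00519). The WT rise at 6 d was lost without replicate 3 of 0 d or replicate 1 or 2 of 6 d IDL (0.66 to 0.76, limma adjusted p = 0.0212 to 0.0386). RGL3 in *rpn12a-236* differed by -1.30, -2.36, -2.97 and -3.08 at 6 h, 1 d, 3 d and 6 d, whereas WT had a rise of 1.25 at 6 h and no other call. The RGL3 calls at 6 h were lost in *rpn12a-236* without replicate 2 or 3 of 0 d (-1.16 and -1.17, limma adjusted p = 0.0115 and 0.0111) and in WT without replicate 2 of 0 d (0.97, limma adjusted p = 0.0219).

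RGL1 went opposite ways late in darkness. In *rpn12a-236* it rose by 1.71 at 6 h and fell by 1.25 at 6 d (limma adjusted p = 0.00107 and 0.00928), and in WT it rose by 1.62 at 3 d and 1.66 at 6 d (limma adjusted p = 0.00125 and 0.000945). The z-scores of RGL1 in *rpn12a-236* at 0 d were -1.27, -0.30 and 0.32, a wide spread on which the calls in *rpn12a-236* rest. The rise at 6 h was lost without replicate 1 of 0 d (1.28, limma adjusted p = 0.0136). The fall at 6 d was lost without replicate 2 or 3 of 0 d or replicate 1 or 3 of 6 d IDL (-0.88 to -1.33, limma adjusted p = 0.0159 to 0.0808), with no filter (limma adjusted p = 0.0113) and with no variance moderation (limma adjusted p = 0.0124).

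Among the receptor genes, GID1B in WT had -1.35, -1.30 and -2.24 at 0 d, and its WT rises were 3.06, 2.70, 2.57 and 3.05 at 6 h, 1 d, 3 d and 6 d (SE 0.36 each, limma adjusted p at most 1.87e-06). In *rpn12a-236* the differences were 0.78, 0.20, 0.64 and 0.60, the highest with a 95% interval of 0.02 to 1.53. GID1C rose by 0.85 to 2.18 in *rpn12a-236* and by 2.14 to 2.88 in WT. GID1A rose by 2.33 to 3.30 in *rpn12a-236* and by 0.88 to 1.78 in WT. SLY1 rose by 1.45, 2.02 and 2.58 at 1 d, 3 d and 6 d in WT, and differed by 0.00 to 0.98 in *rpn12a-236* with no call. The SLY1 rise at 1 d was lost without replicate 2 of WT 0 d (1.32, limma adjusted p = 0.0187) or replicate 1 of WT 1 d IDL (1.28, limma adjusted p = 0.0217).

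Whether the response itself differed between genotypes was tested with the interaction of genotype and time, given as the *rpn12a-236* response minus the WT response. GID1B and RGL3 had a lower response in *rpn12a-236* at all 4 times, RGL1 and GID1C at 3 d and 6 d, and RGA and GID1A had a higher response at 6 h, 1 d and 3 d. GAI, RGL2 and SLY1 were not called at any time. The interaction was called for 4, 4, 6 and 4 members at 6 h, 1 d, 3 d and 6 d, beside 7.48%, 12.7%, 15.1% and 21.4% of all genes tested. Of the 36 values 6 were called higher and 12 lower, beside 6.93% and 7.25% of all values over the 4 times. The highest value was that of RGA at 3 d (3.55 ± 0.34, limma adjusted p = 3.13e-07) and the lowest that of RGL3 at 1 d (-3.16 ± 0.45, limma adjusted p = 3.37e-05). The interaction includes the difference at 0 d, which was called for RGA, RGL3 and GID1A. Darkness and time cannot be told apart in it, since no mutant leaf was sampled in the light after 0 d. In WT light, GID1B at 3 d differed from 0 d by 2.20 (limma adjusted p = 0.00139). The interval of SLY1 was -3.12 to -0.79 at 3 d and -2.76 to -0.44 at 6 d (limma adjusted p = 0.0125 and 0.0323), and those of GAI lay within -0.83 and 1.43 and those of RGL2 within -0.72 and 1.00.

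Some interaction calls were lost when 1 library was left out. That of GID1A at 6 h was lost without any of 8 libraries, all but replicate 1 of *rpn12a-236* 0 d, replicate 3 of *rpn12a-236* 6 h IDL and replicates 1 and 3 of WT 6 h IDL (0.87 to 1.19, limma adjusted p = 0.0118 to 0.0275). That of GID1B at 3 d was lost without any of 9 libraries, all but replicates 1 and 2 of WT 0 d and replicate 1 of WT 3 d IDL (-1.62 to -2.02, limma adjusted p = 0.0111 to 0.0281). GID1B at 6 h was lost without replicate 3 of WT 0 d or WT 6 h IDL, replicate 1 of *rpn12a-236* 0 d, or replicate 1 or 2 of *rpn12a-236* 6 h IDL (-1.95 to -2.17, limma adjusted p = 0.0114 to 0.0154). RGL1 at 3 d was lost without replicate 3 of WT 0 d or *rpn12a-236* 0 d, or replicate 1 or 3 of *rpn12a-236* 3 d IDL (-1.99 to -2.25, limma adjusted p = 0.0103 to 0.0136). GID1C at 6 d was lost without replicate 1 of WT 0 d, replicate 1 or 2 of WT 6 d IDL, replicate 1 or 2 of *rpn12a-236* 0 d, or replicate 1 or 3 of *rpn12a-236* 6 d IDL (-0.80 to -0.94, limma adjusted p = 0.0139 to 0.0223).

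WT leaves of the same time in darkness and light were compared to separate darkness from time. GID1C was higher in IDLs at all 4 times and RGL2 lower at all 4, while SLY1 was higher from 1 d on and RGL1 at 3 d and 6 d. GAI was higher at 6 h and 1 d, and GID1B at 6 h, 1 d and 6 d. RGA was higher in IDLs at 6 h and 6 d but lower at 3 d, and RGL3 was not called at any time. Here 5, 6, 6 and 7 members were called at 6 h, 1 d, 3 d and 6 d, beside 36.5%, 40.9%, 45.5% and 47.2% of all genes tested. Of 36 values 19 were called higher and 5 lower in IDLs, beside 19.9% and 22.6% of all values over the 4 times. GID1C differed by 1.55, 2.20, 1.50 and 2.00 at 6 h, 1 d, 3 d and 6 d (SE 0.18 each), and RGL2 by -1.01, -2.25, -1.70 and -1.58 (SE 0.15 each). SLY1 at 3 d had 0.86, 1.36 and 1.59 in IDLs, against -1.75, -0.87 and -1.57 in the light, a difference of 2.67 ± 0.37 (limma adjusted p = 3e-06). GID1A was higher in IDLs at 1 d, 3 d and 6 d by 1.72, 1.42 and 0.95 (SE 0.19 each), and at 6 h had a difference of -0.52 that was not called (limma adjusted p = 0.0328).

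**Figure D4:**
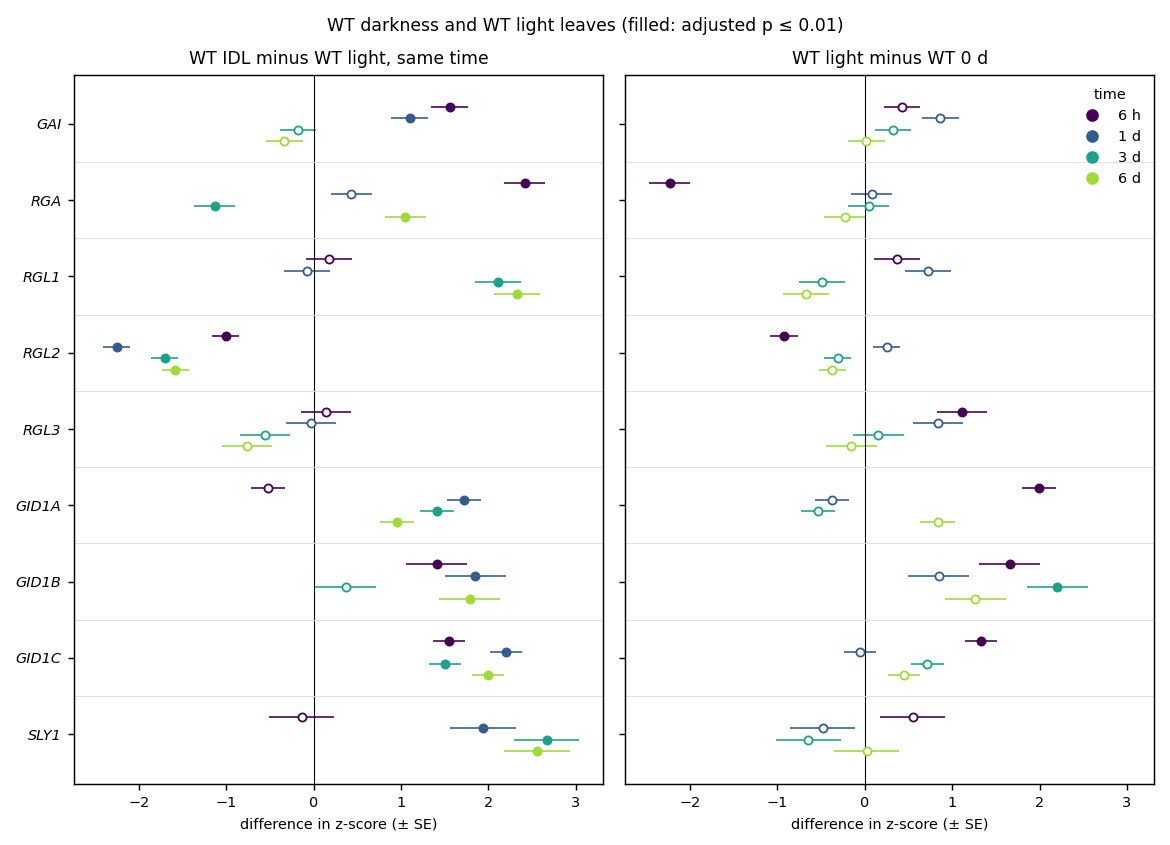
Difference in z-score (x axis, ± SE from limma, 3 libraries a group) of each gene (y axis) at 6 h, 1 d, 3 d and 6 d, as WT IDL minus WT light of the same time (left) and as WT light minus WT 0 d (right). Filled points have an adjusted p of at most 0.01. In WT light at 6 h, harvested at 2 pm, RGA differed from 0 d by -2.23 and GID1A by 1.99.

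Among the differences at 6 h, that of RGA was the highest. Its z-scores were 0.38, 0.54 and -0.32 in WT IDLs, against -1.96, -2.15 and -2.53 in WT light, a difference of 2.42 ± 0.23 (limma adjusted p = 4.78e-08). The light libraries held the lowest values of RGA among all 14 conditions. Without replicate 3 of WT 6 h light the difference was 2.26 (limma adjusted p = 4.39e-07). The other called differences at 6 h were 1.55 for GAI, -1.01 for RGL2 and 1.55 for GID1C, and were 1.57, -1.06 and 1.43 without that library, still called. That of GID1B was 1.41 ± 0.35 (limma adjusted p = 0.00223), and was lost without replicate 3 of WT 6 h light (1.21, limma adjusted p = 0.0145), replicate 1 of WT 6 h light (1.28, limma adjusted p = 0.0119) or replicate 3 of WT 6 h IDL (1.29, limma adjusted p = 0.0123). At 3 d the order of RGA was the opposite, with -1.01, -1.09 and -1.10 in WT IDLs against 0.03, 0.05 and 0.12 in WT light, a difference of -1.13 ± 0.23 (limma adjusted p = 0.000299). At 6 d the difference was 1.05 ± 0.23 (limma adjusted p = 0.000624). GID1B at 3 d had 0.71, 0.91 and 1.20 in WT IDLs against 1.12, -0.12 and 0.73 in WT light, groups that overlapped and were not called (0.36, limma adjusted p = 0.403), while the difference of these IDLs from 0 d was 2.57. Fitted on their own 6 libraries, the calls of GAI at 6 h and 1 d and of RGL2, GID1B and GID1C at 6 h were lost (limma adjusted p = 0.0102 to 0.0288).

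Finally, WT leaves kept in the light were set against those of 0 d. At 6 h, with harvest at 2 pm, 6 members were called, where 23.7% of all genes tested were called, with RGA and RGL2 lower and RGL3, GID1A, GID1B and GID1C higher than at 0 d. Of the later calls, GID1B at 3 d was the only one, so that 0, 1 and 0 members were called at 1 d, 3 d and 6 d, beside 3.23%, 1.08% and 1.27% of all genes tested. Over the 4 times 5 of 36 values were called higher and 2 lower, beside 3.12% and 4.19% of all values. At an unadjusted p under 0.05 in limma, 4, 3 and 5 members passed at 1 d, 3 d and 6 d. The share of all genes that pass at this level was not computed, so no response of the members can be read from these counts. GAI at 1 d had a difference of 0.87 (limma adjusted p = 0.0128), the nearest of the others to a call at 1 d. Hour of harvest and time under treatment cannot be told apart at 6 h. For *rpn12a-236*, darkness and time under treatment cannot be told apart at any IDL time, since no mutant leaf was sampled in the light after 0 d. At 6 h the hour of harvest cannot be told apart from them either.

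The differences at 6 h of WT light were as large as many of those under darkness. RGA differed from 0 d by -2.23 ± 0.23 (limma adjusted p = 2.22e-07) and RGL2 by -0.92 ± 0.15. GID1A had 1.23, 1.22 and 0.97 in WT 6 h light against -0.998, -0.70 and -0.87 at 0 d, a difference of 1.99 ± 0.19 (limma adjusted p = 8.18e-08). GID1B differed by 1.66 ± 0.35 and GID1C by 1.33 ± 0.18. Without replicate 3 of WT 6 h light, the differences of RGA, RGL2, RGL3, GID1A, GID1B and GID1C were -2.07, -0.88, 1.24, 2.08, 1.86 and 1.45, and each was still called. RGL3 (1.11 ± 0.29, limma adjusted p = 0.00463) was lost without replicate 2 of 0 d (0.83, limma adjusted p = 0.0405) and without replicate 1 or 2 of WT 6 h light (1.15 and 0.94, limma adjusted p = 0.0103 and 0.0242). GID1B at 3 d (2.20 ± 0.35, limma adjusted p = 0.00139) was lost without replicate 3 of 0 d (1.90, limma adjusted p = 0.0103) or replicate 1 of WT 3 d light (1.93, limma adjusted p = 0.0141).

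Over all 14 conditions the members fell into different orders. GAI was highest in *rpn12a-236* 6 h IDLs and lowest in *rpn12a-236* 6 d IDLs, and its libraries separated at a step of 1.10 between WT 1 d IDLs and WT 1 d light, with the 4 IDL groups of 6 h and 1 d above all others. RGA was highest in *rpn12a-236* 1 d IDLs and lowest in WT 6 h light, and RGL1 highest in WT 6 d IDLs and lowest in *rpn12a-236* 6 d IDLs. RGL2 separated by 1.01 between WT 6 h light and WT 6 h IDLs, with all light groups above all IDL groups. RGL3 was highest in *rpn12a-236* at 0 d and lowest in *rpn12a-236* 6 d IDLs. GID1A was highest in *rpn12a-236* 1 d IDLs and lowest in *rpn12a-236* at 0 d. GID1B and GID1C were highest in WT 6 h IDLs, GID1B was lowest in WT at 0 d and GID1C in WT 1 d light. SLY1 was highest in WT 6 d IDLs (1.80, 1.88 and 1.81) and lowest in WT 3 d light. Between neighbours in these orders, the libraries overlapped at most steps, as only 1 (RGL1, RGL3 and GID1B) to 5 (GID1C) of the 13 steps of a gene were free of overlap.

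Across the means of the 14 conditions, which share libraries, normalization and treatments, GID1C followed GID1A with r = 0.77 and GID1B with r = 0.75, while GID1A and GID1B had r = 0.41. RGL2 ran against GID1C (r = -0.80), SLY1 (r = -0.74) and GID1A (r = -0.73). GAI and RGA, the most alike in coding sequence of the DELLA genes, had r = 0.37, and RGA and RGL3 had r = -0.55. The genes most like each member over these means, among genes with no library at a shared lowest value, were MLO4 (r = 0.96) and GSK1 (r = 0.94) for GAI, HUB1 (r = 0.91) and AT4G15475 (r = 0.87) for RGA, AT1G33780 (r = 0.87) and AT3G09690 (r = 0.83) for RGL1, AT4G34630 (r = 0.99) and SS3 (r = 0.98) for RGL2, and OPCL1 (r = 0.97) and AT2G04400 (r = 0.95) for RGL3. They were BBD1 (r = 0.93) and AT4G33490 (r = 0.92) for GID1A, AT1G13830 (r = 0.91) and ATSYP24 (r = 0.89) for GID1B, PUP14 (r = 0.95) and RING (r = 0.95) for GID1C, and AT1G61150 (r = 0.96) and AT1G33970 (r = 0.95) for SLY1. With 17528 genes to choose from, high values of r are found by selection, and no test was made.

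A list of 36 other genes covered gibberellin synthesis, inactivation, regulation and response. It included ASK1, ASK2, CUL1 and RBX1, SCF subunits that are not specific to gibberellin. Of the 36 genes, 32 were among those of the series and 29 were tested in the genotype comparison. At 0 d, 6 h, 1 d, 3 d and 6 d, 3, 2, 2, 4 and 5 of them were higher in *rpn12a-236* and 6, 4, 4, 4 and 5 lower, where 4.73% to 17.2% of all genes tested were higher and 6.66% to 17.9% lower. After darkening, 12, 14, 13 and 12 rose and 4, 4, 7 and 7 fell in *rpn12a-236* at 6 h, 1 d, 3 d and 6 d, and 9, 12, 13 and 10 rose and 6, 6, 6 and 7 fell in WT. Over all genes tested, 16.5% to 24.0% rose and 18.4% to 26.7% fell in *rpn12a-236*, and 18.7% to 23.8% rose and 20.4% to 26.2% fell in WT. The interaction was called higher for 2, 3, 6 and 4 of them and lower for 1, 1, 2 and 4 of the 29 at these times, where 2.84% to 10.8% of all genes tested were called higher and 4.63% to 10.6% lower. Of the 9 synthesis genes tested, 2, 0, 0 and 2 were higher in *rpn12a-236* at 6 h, 1 d, 3 d and 6 d. Those at 6 h were GA20OX1 (1.66) and GA20OX3 (1.36), and those at 6 d were KAO1 (2.24) and KAO2 (1.94). GA20OX3 was already higher in *rpn12a-236* at 0 d in the light (1.53, limma adjusted p = 0.00287). The only synthesis gene lower in *rpn12a-236* in IDLs was GA3, which encodes ent-kaurene oxidase. It was lower at all 4 IDL times, with means of -0.36 in *rpn12a-236* and 1.98 in WT at 6 d (-2.34 ± 0.16, limma adjusted p = 1.2e-10). SCL3, a GRAS gene of gibberellin signalling, was also lower at all 4 IDL times, with -0.38 in *rpn12a-236* and 1.32 in WT at 6 d (-1.70 ± 0.27, limma adjusted p = 1.91e-05). NPF3.1, a gibberellin transporter gene, was lower in *rpn12a-236* at 0 d, 6 h, 1 d and 6 d, with differences of -0.92 to -1.38. XERICO, a RING finger gene induced by DELLA proteins, was lower at 0 d, 3 d and 6 d (-1.65, -1.64 and -1.88), and GASA14, of a gibberellin-responsive family, was higher at 0 d, 3 d and 6 d (0.71, 0.59 and 1.50).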

How the data were processed

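RNA-seq libraries from leaves (42 in 14 conditions) were processed by the authors with FastQC 0.11.4, Trimmomatic, kallisto 0.43.0 on TAIR10 transcripts, tximport and DESeq2 1.14.1, per the submitters' notes and the study's methods. The deposited unit is a score. The authors took blind variance stabilized values, set the smallest to zero by subtraction and made a z-score of each gene over the 42 libraries. This removes fold changes, levels and depth, so precision can be judged only from the spread among replicates. In the fits below, the spread of a gene was pooled over all groups of the fit and moderated over all genes. The SEs and p-values rest on this pooled spread, not on the 3 replicates of each compared group alone. All 42 columns were mapped to conditions, the mutant ones through the authors' name for this data set, and 0 were left over.

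limma 3.58.1 in R 4.3.3 was fitted with group means, on 30 libraries for genotype, darkening and interaction (24407 genes tested) and on 27 WT libraries for darkness against light and light against 0 d (24166). Genes entered a fit if 3 or more of its libraries exceeded the lowest value that 2 or more libraries share. Benjamini-Hochberg adjustment ran over all these genes, and calls were made at 0.01. There were 25 comparisons, 225 values for the 9 members. The fit was checked on simulated data with known shifts. Named genes were all members and their calls, the 2 genes most alike per member, and pathway genes called between genotypes at 3 or more of 5 times. Synthesis genes called higher in *rpn12a-236* were named as well. The members and lists were chosen with earlier results of these data known. Alternatives were a fit on all 42 libraries, no filter, no or robust moderation, a replicate block, 0.001, each comparison's own 6 libraries, and leaving out each library. Deviations of same-numbered replicates were correlated between genotypes, but those of replicates with different numbers were not compared. Sequences, overlaps and 31-base words came from the TAIR10.1 assembly, with Python 3.11.15 and Biopython 1.88, and plots from matplotlib 3.10.9. The motif stretches start where the shared coding run after the motif places its first codon.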

Additional observations from a re-analysis of the deposited data

Results flagged for a closer look

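In 18 of 36 cases the change of a member after darkening differed between *rpn12a-236* and WT by the interaction test. Over all genes tested, 7.48%, 12.7%, 15.1% and 21.4% were called at 6 h, 1 d, 3 d and 6 d. Values are the *rpn12a-236* response minus the WT response in z-score units. Leaving out 1 library could end 5 of these calls. They were GID1A at 6 h, GID1B at 6 h and 3 d, RGL1 at 3 d and GID1C at 6 d. RGA had a higher response in *rpn12a-236* at 6 h (1.76 ± 0.34, SE), 1 d (2.55 ± 0.34) and 3 d (3.55 ± 0.34). GID1A had a higher one at 6 h (1.12 ± 0.28), 1 d (1.96 ± 0.28) and 3 d (1.59 ± 0.28). RGL3 had a lower one at 6 h, 1 d, 3 d and 6 d, with values of -2.55, -3.16, -2.57 and -2.17 (SE 0.45 each). GID1B was also lower at all 4 times, by -2.29, -2.50, -1.93 and -2.45 (SE 0.51 each). RGL1 was lower at 3 d and 6 d, with -2.36 and -2.91 (SE 0.56 each), and GID1C at 3 d and 6 d, with -1.36 and -0.98 (SE 0.26 each). The limma adjusted p of these values lay between 3.13e-07 and 0.0087. At 0 d RGA and GID1A were already lower and RGL3 higher in *rpn12a-236*, and these starting values enter their interactions.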

How the results depend on the processing

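None of the 118 called differences changed direction under the alternatives run. All 118 calls remained with 42 libraries in the fit and with robust moderation, 117 with no filter and 117 with no moderation, and 93 with the threshold at 0.001. There the genotype calls numbered 11 and the interaction calls 11. With only the 6 libraries compared, 28 of 43 calls remained, and the genotype calls numbered 9, since less is known of the spread from fewer libraries. Leaving out 1 library gave 16 to 20 genotype calls, 22 to 24 of darkening in *rpn12a-236*, 25 to 26 of darkening in WT, 14 to 20 of the interaction, 23 to 24 of WT IDL against light and 6 to 9 of WT light against 0 d. In this way 96 calls were kept in every fit and 22 were lost in at least 1. The deviations of replicates with the same number correlated between genotypes by -0.14 to 0.24, with 0.237, 0.028 and 0.113 at 6 h. Replicates with different numbers were not compared, so these values cannot decide whether the numbers pair the samples. A replicate block gave 20 genotype, 24 and 26 darkening, 16 interaction, 24 IDL against light and 7 light calls, and ended those of the GID1A interaction at 6 h (limma adjusted p = 0.0117) and the GID1B interaction at 3 d (limma adjusted p = 0.0106), and no other call. Depth is not known from z-scores.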
